A study of Mus musculus with 16 samples.

Results

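TRIM proteins were followed here through the response of dendritic cells to a bacterial second messenger. The members are the 64 genes of the deposited table, out of 23356 in all, whose symbol is Trim followed by a number and at most 1 letter; Trim25 was left out by the rule. Membership rests on the name and on no measured value, although the members were chosen with earlier results of these data known. Bone marrow-derived dendritic cells (BMDCs) of C57BL/6 background were grown from the marrow of wild-type (WT), Tmem173-/-, Irf1-/- and Irf3/7-/- mice with GM-CSF and IL-4 for 6 days. Each culture was then left untreated (NT) or given 25 µg/ml of the cyclic dinucleotide c-di-GMP (CDG) for 18 h. That dose is the one in the labels, and the study's legend for these RNA-seq data gives a higher one. Tmem173 encodes STING, the receptor that senses cyclic dinucleotides, and IRF1, IRF3 and IRF7 are transcription factors of the interferon response. The knockouts are germline deletions, so the cells also developed without the gene. Polyadenylated RNA was sequenced from 16 libraries, 2 per genotype and treatment, and the labels do not say whether the 2 came from separate mice or cultures. They give no age, and the study's methods describe sex-matched young adult mice.

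The authors combined the 2 libraries of each condition into 1 FPKM, fragments per kilobase of gene after scaling to the size of the library, with a lower and an upper bound. FPKM is a level per length, so levels of different genes may be compared. With 1 value per condition there is no replicate spread and no p-value, and the bounds printed in parentheses after an FPKM are the only error available. A gene was called higher or lower where log2(FPKM + 0.1) differed by more than 2-fold, the intervals did not overlap and at least 1 of the conditions reached 1 FPKM. The same call over all genes of the table gives the background beside each count of TRIM genes. A difference below is on this log2 scale, first condition minus second, and a level is an FPKM. In RNA from a whole culture, fewer cells of a type and less RNA per cell cannot be told apart.

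TRIM proteins carry a RING finger, B-boxes and a coiled coil in that order, and the RING makes most of them E3 ubiquitin ligases, the enzymes that choose which protein receives ubiquitin. The domain at the C-terminus sorts them into classes: PRY-SPRY domains bind partner proteins or viral particles, PHD-bromodomain members repress transcription in chromatin, NHL repeats bind RNA or proteins, and a COS-box ties a protein to microtubules. Many TRIM genes are induced by interferon, and several act on the receptors and kinases that lead to it. Interferon-induced genes often hold an interferon-stimulated response element (ISRE) near the start, which IRF proteins and other interferon-activated factors bind.

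Most of the TRIM genes called higher after c-di-GMP in WT BMDCs lay close together. On GRCm38, chromosome 7 from 104218793 to 104507849 held 8 of the members, Trim6, Trim34a, Trim12a, Trim34b, Trim12c, Trim30b, Trim30a and Trim30d, within 289 kb. They are relatives of the primate retrovirus restriction factor TRIM5. The interval holds 10 protein-coding genes in the annotation. The other two, Trim5 and Trim30c, were not analysed here. The sequences that follow show letters found at the starts of some of these genes, and of Trim21 and Trim26, which lie outside the cluster. Promoters from RefSeq (GRCm38.p6, 250 bases before to 50 bases after a start) were matched by symbol for 49 of the 64 members, and searched on both strands for the ISRE-like letters GAAANNGAAA. Each line gives 30 bases around the match, 5′ to 3′ along the gene, with the matching bases in capitals; a match on the opposite strand reads as TTTCNNTTTC.
Trim30a: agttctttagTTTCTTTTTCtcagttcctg
Trim30d: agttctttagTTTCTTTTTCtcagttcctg
Trim12a: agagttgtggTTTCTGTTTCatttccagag
Trim12c: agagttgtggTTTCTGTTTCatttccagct
Trim34a: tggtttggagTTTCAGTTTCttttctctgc
Trim21: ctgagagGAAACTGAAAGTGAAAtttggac
Trim26: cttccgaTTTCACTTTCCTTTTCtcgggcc

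The windows of Trim30a (chr7:104465210-104465239) and Trim30d (chr7:104507871-104507900), both on the minus strand, were identical over all 30 bases. Their match began 36 and 41 bases before the start. The windows of Trim12a (chr7:104315466-104315495, minus strand) and Trim12c (chr7:104353359-104353388, minus strand) were alike too, with the match 10 bases after the start in Trim12a and 29 bases before it in Trim12c. Trim34a (chr7:104244457-104244486, plus strand) held it 10 bases after the start. Trim21 (chr7:102565447-102565476, minus strand) and Trim26 (chr17:36836979-36837008, plus strand) each held 2 overlapping matches, 13 bases after the start in Trim21 and 160 bases before it in Trim26. Trim30a had a further annotated start with the same letters in its promoter.

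Such letters occurred in 1131 of 32851 mouse promoters of this length, or 3.44%, and in the promoter of 3.99% of gene symbols. Among TRIM genes 8 of 49 held them: the 7 shown and Trim2, which stayed below 1 FPKM in every condition. Of 35 members tested in WT BMDCs, 9 were called higher after c-di-GMP, 25.7% beside 10.5% of all genes tested, and of these 9, 6 held the match, against 2 of the 40 other members with a promoter. Trim30b, Trim6 and Trim62 were the 3 without it. The 40 others include members below 1 FPKM in every condition, which could not be called. The 6 include neighbours with alike windows, Trim30a with Trim30d and Trim12a with Trim12c, so they are not separate cases. A second set of letters, TTCNNNGAA, was searched in the same promoters. It occurred in 8.3% of all promoters, in 0 of the 9 raised members and in 5 of the 40 others. Both searches give matches of letters in a window and no measure of binding.

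Trim30a and Trim30d had the highest FPKM of the TRIM genes in treated WT BMDCs, the interval of Trim30d overlapping that of Trim35, and the 250 bases before their starts are printed in full because they differ so little. Aligned, 227 positions were identical, 18 were mismatched and 10 fell in gaps, which is 92.7% identity over the aligned positions. The capitals again mark the ISRE-like letters. Trim30a lies at chr7:104465194-104465443 and Trim30d at chr7:104507850-104508099, both on the minus strand of GRCm38.p6.
Trim30a: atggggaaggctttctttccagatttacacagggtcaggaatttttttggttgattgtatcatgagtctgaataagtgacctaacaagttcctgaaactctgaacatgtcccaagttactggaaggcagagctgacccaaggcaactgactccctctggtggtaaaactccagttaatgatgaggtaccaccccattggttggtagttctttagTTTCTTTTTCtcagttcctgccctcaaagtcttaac
Trim30d: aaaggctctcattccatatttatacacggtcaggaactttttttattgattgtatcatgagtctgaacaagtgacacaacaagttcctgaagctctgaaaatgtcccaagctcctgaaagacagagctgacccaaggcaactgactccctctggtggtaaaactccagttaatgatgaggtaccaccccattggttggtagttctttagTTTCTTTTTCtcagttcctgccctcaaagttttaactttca

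Of the 64 members, 38 reached 1 FPKM in at least 1 of the 8 conditions and 26 stayed below it everywhere. Trim31, Trim55, Trim60 and Trim61 were listed at 0 in all 8. Among the low ones were 6 of the 8 COS-box genes, which include the muscle proteins Trim54, Trim55 and Trim63, and Trim66, the PHD-bromodomain member with at most 0.21 FPKM. Trim38, a regulator of Toll-like receptor signalling, was at most at 0.0366 FPKM. The cluster gene Trim34b was at most at 0.158 FPKM. The number of members at 1 FPKM or more was alike across conditions, between 32 and 35.

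The libraries were checked first by the deleted genes. Tmem173 stood at 8.97 FPKM (6.62-11.3) in untreated and 7.49 (5.51-9.45) in treated Tmem173-/- BMDCs, against 103 (77.7-128) and 118 (89.3-146) in WT. Irf1 was lower in Irf1-/- than in WT BMDCs, 25.9 (19-33.3) against 149 (113-185) untreated and 116 (82.8-149) against 245 (176-314) treated. Its treated Irf1-/- interval lay above the untreated Irf1-/- one and overlapped that of untreated WT. Irf7 was at 1.07 and 4.97 FPKM in the untreated and treated BMDCs labelled Irf3/7-/- and at 15.2 and 687 in WT. Irf3 was lower than in WT in the untreated condition labelled Irf3/7-/-, 7.74 (5.55-9.96) against 19.9 (15.4-24.5). In the treated condition so labelled it was at 20.2 FPKM (14.8-25.7) and in treated WT BMDCs at 15.8 (11.6-20). The Irf3 level of the treated condition therefore went against its label while its Irf7 level did not, and a gene-wide FPKM counts whatever exons an allele leaves. Results from it are given for BMDCs labelled Irf3/7-/-.

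Dendritic cell markers such as Itgax, Cd74 and Zbtb46 were present in every condition, all 7 of 7 at 1 FPKM or more, with a summed level between 4480 and 7290 FPKM. Most of that sum was Cd74, at 3340 to 4980 FPKM, and some other markers moved. H2-Ab1 was lower in Irf1-/- than in WT, 278 against 650 FPKM untreated and 331 against 890 treated. Between treated Tmem173-/- and treated WT, Ccr7 was lower, 114 against 1260 FPKM, and Itgax higher, 328 against 135. Markers of other cells were present too and moved with genotype and with treatment. The 7 T cell markers summed to 73.4 and 52.2 FPKM in untreated and treated WT BMDCs and to 99.4 and 177 in those labelled Irf3/7-/-, but to 1.34 and 1.38 in Tmem173-/- and 6.29 and 10 in Irf1-/-. In NK cell markers the sums were 360 and 341 in WT, 329 and 937 in Irf3/7-/-, and at most 9.72 in Tmem173-/- and Irf1-/-. Nearly all of the sum was the cytotoxic granule gene Gzma, at 349 FPKM in untreated WT BMDCs and at 0 in both Tmem173-/- conditions. The NK receptor genes Klrd1 and Klrk1 were not low without STING, at 4.83 and 3.83 FPKM untreated against 2.01 and 2.98 in WT. The 7 neutrophil markers summed to 19900 and 14400 FPKM in untreated and treated Tmem173-/- BMDCs and to between 1410 and 4000 FPKM in the other 6 conditions. S100a8 and S100a9 made up most of these sums. In every condition the FPKM of S100a8 lay above its own upper bound, as at 10400 (5200-10100) in untreated Tmem173-/- BMDCs. Untreated, 6 of the 7 were called higher in Tmem173-/- than in WT. Mpo, however, was at 24.7 FPKM in untreated Irf1-/- and 16.5 in Irf3/7-/-, against 19.1 in Tmem173-/- and 3.7 in WT. In WT the 7 markers went from 4000 FPKM untreated to 1890 treated, with 2 of 7 called lower. Macrophage markers summed to 426 and 409 FPKM in Tmem173-/- and to between 81.2 and 305 FPKM elsewhere. In WT their sum went from 111 to 305 FPKM with treatment, with 3 of 5 called higher. Between the treated Tmem173-/- and WT conditions the higher sum came from Csf1r, 204 against 48.6 FPKM, while Mertk was at 3.74 against 16.9. The sums were for basophil and mast cell markers 169 and 260 FPKM in Irf3/7-/- and between 56.3 and 92.2 FPKM elsewhere, and for B cell markers at most 10.7 FPKM. The part of these cells in the TRIM results was not tested.

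In WT BMDCs the TRIM genes that c-di-GMP raised were mostly those of the chromosome 7 cluster. Of the 35 members tested, 9 were higher and 5 lower after treatment, 40% of those tested, where 20.5% of all 11201 genes tested were called, 10.5% higher and 9.96% lower. The median difference was 0.29 over the members and 0.0 over all genes tested. All 7 cluster genes that could be tested rose. Outside the cluster 7 of 28 were called, where 20.5% of all genes were. Of these 28, 5 were lower and 2 higher, Trim21 and Trim62. The share raised outside the cluster was thus not above the 10.5% of all genes. Trim21, too, lies on chromosome 7, 1.65 Mb before the cluster, so 8 of the 9 raised members shared that chromosome. The macrophage and neutrophil markers moved between the same WT conditions, and their part was not tested. Of the 5 tested members of chromosome 7 outside the cluster Trim21 alone was called. Chromosome 17 held 6 members close to or within the histocompatibility region, but only Trim26 and Trim39 reached 1 FPKM there, and neither was called.

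The Trim30 genes of the cluster led. Trim30a, which restrains NF-κB signalling in mouse macrophages, stood at 33.2 FPKM (25-41.3) in untreated WT BMDCs and at 214 (162-265) after c-di-GMP, a difference of 2.68. It was at 15.5 (11.7-19.3) and 19 (14.7-23.4) without STING, at 20.8 (15.8-25.8) and 178 (133-223) without IRF1, and at 23.5 (17.8-29.1) and 154 (115-192) in Irf3/7-/-. The 3 treated conditions with STING overlapped one another and lay above the 5 others. Trim30d showed the same order at a lower level: 13.2 FPKM (9.79-16.5) to 105 (80.6-130) in WT, 4.88 (3.3-6.59) to 6.04 (4.42-7.67) in Tmem173-/-, 7.23 (5.5-8.96) to 83.8 (64.6-103) in Irf1-/- and 7.99 (6.12-9.86) to 76.2 (58.7-93.6) in Irf3/7-/-. The differences from untreated to treated were 2.99, 0.30, 3.52 and 3.24. Reads of 35 bases could be shared between these genes: 9.67% of the 35-base windows of Trim30a and 10.4% of those of Trim30d occur in another gene, mostly in each other.

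Trim30b had the largest difference of any member in WT BMDCs, 4.37, a 20.7-fold rise from 0.746 FPKM (0.402-1.06) to 17.4 (11.9-22.8). Only 82 of the 11201 genes tested rose more on this scale. It rose in treated Irf1-/- from 0.467 (0.244-0.689) to 6.25 FPKM (4.16-7.73) and in Irf3/7-/- from 0.567 (0.301-0.832) to 7.45 (4.91-9.86). In Tmem173-/- it was at 1.23 (0.818-1.64) and 1.08 (0.674-1.48). The treated levels without IRF1 or in BMDCs labelled Irf3/7-/- thus lay below the treated WT interval and above every untreated one.

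The other 4 cluster genes rose as well. Trim34a went from 6.25 FPKM (4.72-7.77) to 24 (18.6-29.4) in WT, from 3.83 (2.79-4.89) to 3.46 (2.51-4.39) in Tmem173-/-, from 3.68 (2.71-4.64) to 20.1 (15.6-24.6) in Irf1-/- and from 4.02 (2.97-5.06) to 17.1 (13.2-20.9) in Irf3/7-/-. Trim34a and Trim34b are near copies, and 66.6% of the 35-base windows of Trim34a occur in other genes, 46.8% in Trim34b, so the split of reads between them is uncertain. Trim12a went from 11.7 FPKM (8.68-14.7) to 31.2 (23.9-38.6) in WT, from 9.09 (6.54-11.6) to 7.69 (5.4-9.99) in Tmem173-/-, from 7.01 (5.14-8.89) to 21.9 (16.5-27.4) in Irf1-/- and from 9.38 (6.94-11.8) to 27.4 (20.8-34) in Irf3/7-/-. Trim12c went from 16.4 FPKM (12.6-20.1) to 33 (25.1-40.9) in WT, a difference of 1.01 just past the 2-fold limit, and stayed at 10.9 in Tmem173-/- (7.52-14.3 untreated, 7.8-14 treated). It went from 10.3 (7.76-12.8) to 28.9 (22.1-35.7) in Irf1-/- and from 13.8 (10.5-17) to 31.3 (24.1-38.5) in Irf3/7-/-. Trim12c shares 45.1% of its windows with other genes, 35.3% with Trim5, and Trim12a 14.7%. Trim6, which builds free ubiquitin chains that activate an interferon kinase, was the lowest of the 7 after treatment: 0.79 to 4.59 FPKM in WT, 0.561 to 0.707 in Tmem173-/-, 0.658 to 3.16 in Irf1-/- and 0.64 to 2.53 in Irf3/7-/-. In all 7 genes the treated and untreated intervals were apart in the WT, Irf1-/- and Irf3/7-/- BMDCs and overlapped in Tmem173-/-.

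**Figure D1:**
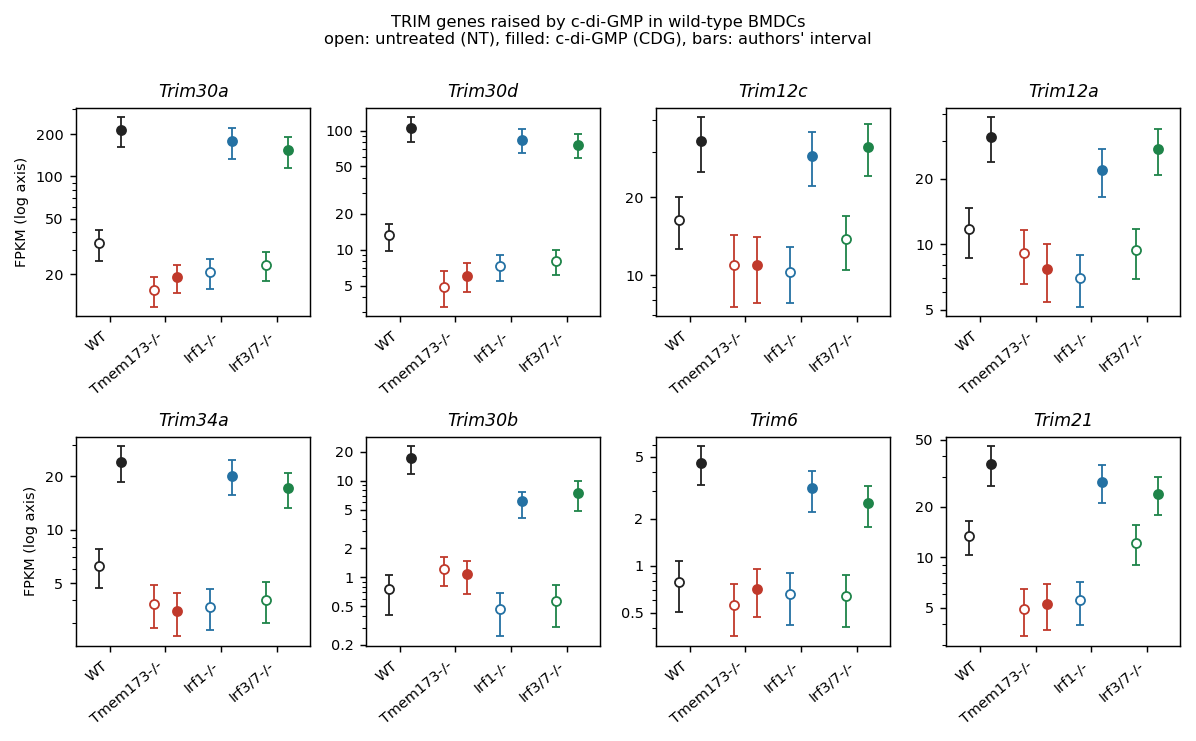
FPKM on a log axis of 8 of the 9 TRIM genes that WT BMDCs raised on c-di-GMP, for 4 genotypes. Open circles are untreated and filled circles treated conditions, each 1 combined value of 2 libraries, and bars are the authors' intervals. Trim30a stands at 214 FPKM in treated WT BMDCs and at 19 in treated Tmem173-/- BMDCs.

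Trim21 and Trim62 were the raised genes outside the cluster. Trim21, a cytosolic antibody receptor that marks antibody-coated virus for destruction, rose from 13.3 FPKM (10.3-16.4) to 36.1 (26.6-45.7) in WT and from 5.51 (3.91-7.11) to 28.1 (20.9-35.4) in Irf1-/-. It was at 4.89 (3.37-6.43) and 5.25 (3.65-6.87) in Tmem173-/-. In Irf3/7-/- it was at 12.2 (8.94-15.5) and 23.8 (17.7-29.9), with the intervals apart but a difference of 0.96, under 2-fold. The differences of 2.33 in Irf1-/- and 1.43 in WT came with unequal starting levels, since the treated intervals of the 2 genotypes overlapped. Trim62, a ligase for the antifungal adaptor CARD9, was at 0.64 FPKM (0.41-0.87) and 1.73 (1.23-2.24) in WT. Its treated levels were 0.783 in Tmem173-/-, 1.68 in Irf1-/- and 1.42 in Irf3/7-/-, and its response was not called in any knockout. Its untreated levels there were 0.943, 0.966 and 1.11 FPKM.

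A further 3 PRY-SPRY genes were not called in WT BMDCs, Trim26 and Trim35 with intervals apart but less than 2-fold and Trim14 with overlapping intervals. Trim26, which targets IRF3, was at 17.3 FPKM (12.6-22.2) and 33.5 (24.6-42.5) in WT, at 11.5 (8.45-14.5) and 12.4 (9.15-15.8) without STING, at 15.8 (11.6-20) and 30.4 (22-38.7) in Irf1-/- and at 14.2 (10.3-18.1) and 23.7 (17.1-30.3) in Irf3/7-/-. Trim35 was among the most abundant members, at 48.4 FPKM (35.2-61.8) and 87.5 (67.2-108) in WT, 28.8 (21.8-35.9) and 31.8 (24.2-39.4) without STING, 45.5 (35-56.1) and 98.8 (75.9-122) in Irf1-/- and 48 (36.9-59.2) and 65.7 (50.4-81.1) in Irf3/7-/-. Trim14, an adaptor without a RING that acts with MAVS, was at 21.4 (14.6-26.4) and 36.6 (24.5-46.8) in WT, 14 (7.72-16.3) and 19.5 (12-23.6) without STING, 18.2 (12.1-23.9) and 36.6 (24.7-47.3) in Irf1-/- and 18.1 (12.1-23.9) and 29.6 (20-38.5) in Irf3/7-/-. Of the 3, Trim35 and Trim14 were called higher in Irf1-/- BMDCs, with differences of 1.12 and 1.0. The Trim14 call was lost with a pseudocount of 1 FPKM and with median centring. Their differences in WT were 0.85 and 0.77. Between the treated conditions, Irf1-/- minus WT was 0.18 for Trim35 and 0.00 for Trim14. Trim14 overlaps Nans on the opposite strand, and 35.9% of its windows occur in other genes. The study's methods name a strand setting for a separate SeqMonk analysis, and whether the FPKM were counted by strand is not stated.

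The 5 lowered members came from several classes and from chromosomes 3, 11 and 18. Trim59, a membrane-anchored member, fell from 9.38 FPKM (6.6-12) to 2.73 (1.93-3.54) in WT and from 8.01 (5.75-10.3) to 2.35 (1.61-3.08) in Irf1-/-. It was at 9.33 (7.03-11.6) and 10 (7.72-12.3) in Tmem173-/- and at 7.76 (5.54-9.93) and 3.89 (2.68-5.09) in Irf3/7-/-, the last a difference of -0.98 with the intervals apart. Trim36, a microtubule-bound COS-box member, went from 5.5 FPKM (3.93-7.09) to 1.46 (1.05-1.87) in WT, from 4.22 (3.15-5.3) to 5.44 (4.18-6.7) in Tmem173-/-, from 6.59 (5.08-8.11) to 2.37 (1.76-2.99) in Irf1-/- and from 3.8 (2.89-4.72) to 2.07 (1.52-2.62) in Irf3/7-/-. In both genes the 3 treated conditions with STING were the lowest, and the 2 conditions without STING overlapped.

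Trim37, a ligase that limits centriole assembly, went from 5.52 FPKM (4.17-6.86) to 2.48 (1.85-3.12) in WT. It was at 5.44 (4.18-6.69) and 6.46 (4.98-7.93) without STING, 5.05 (3.83-6.28) and 3.22 (2.41-4.01) in Irf1-/- and 5.35 (4.06-6.64) and 2.96 (2.21-3.71) in Irf3/7-/-. In the last genotype the difference was -0.83 with the intervals apart, and in Irf1-/- it was -0.63 with overlapping intervals. Trim47 fell in 3 genotypes: 1.93 FPKM (1.17-2.72) to 0.437 (0.214-0.643) in WT, 1.08 (0.665-1.49) to 0.335 (0.156-0.506) in Irf1-/- and 2.43 (1.68-3.18) to 1.03 (0.642-1.4) in Irf3/7-/-. It was the only member lowered in BMDCs labelled Irf3/7-/-, and it was at 4.19 (2.7-5.5) and 3.19 (2.05-4.3) in Tmem173-/-. Trim47 overlaps Trim65 on the same strand, and 7.13% of its windows are shared with it.

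Trim16 went its own way. This RING-less member, which works with galectins at damaged lysosomes, was at 2.52 FPKM (1.85-3.18) and 0.96 (0.653-1.27) in WT, a difference of -1.31. In Irf1-/- it was at 2.49 (1.83-3.15) and 3.07 (2.27-3.87), a difference of 0.29. Treated Irf1-/- BMDCs thus stood 1.58 above treated WT with the intervals apart. The WT call was lost with a pseudocount of 1 FPKM, and both calls were lost with a minimum of 5 FPKM. In Tmem173-/- Trim16 was at 3.76 (2.82-4.71) and 3.53 (2.63-4.41), and in Irf3/7-/- at 2.52 (1.85-3.18) and 1.59 (1.13-2.04) with overlapping intervals. The treated levels of Irf1-/- and Irf3/7-/- differed by 0.91, which was not called.

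**Figure D2:**
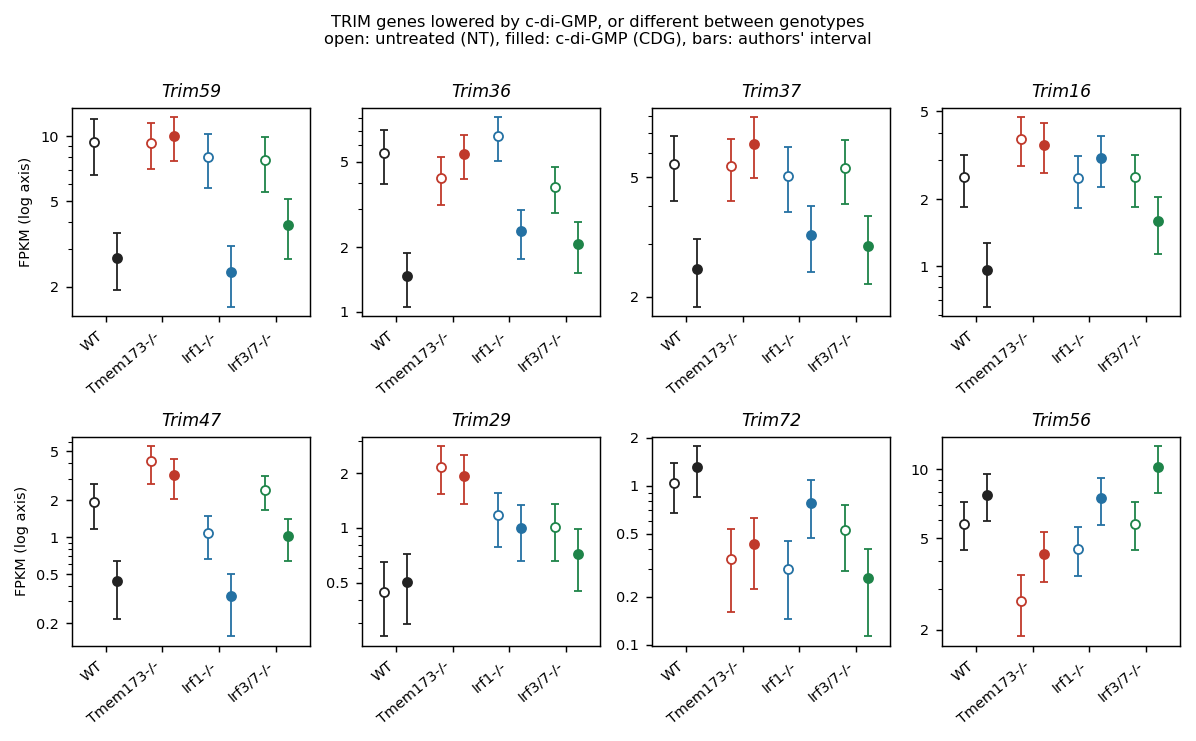
FPKM on a log axis of the 5 TRIM genes that WT BMDCs lowered on c-di-GMP (Trim59, Trim36, Trim37, Trim16, Trim47) and of 3 that differed between genotypes (Trim29, Trim72, Trim56). Open circles are untreated and filled circles treated conditions, and bars are the authors' intervals. Trim16 is at 0.96 FPKM in treated WT and at 3.07 in treated Irf1-/- BMDCs.

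Without STING the family did not respond. Of 33 members tested in Tmem173-/- BMDCs, 0 were called, beside 6 of 10867 genes in all, or 0.0552% (0.046% higher and 0.0092% lower). The differences ran from -0.38 in Trim47 to 0.66 in Trim56, a ligase that acts on STING itself, at 2.67 FPKM (1.87-3.47) untreated and 4.28 (3.23-5.32) treated. Compared with treated WT BMDCs, 6 of 36 members were higher and 12 lower in treated Tmem173-/- BMDCs, 50% against a background of 26.3%, or 12.9% higher and 13.5% lower. All 9 raised members were among the lower ones and all 5 lowered members among the higher ones. The largest of these differences were -4.10 for Trim30d, -3.89 for Trim30b and -3.48 for Trim30a, and, in the other direction, 2.62 for Trim47. The lower set also took in Trim35 (-1.46), Trim26 (-1.42) and Trim72 (-1.42), and the higher set Trim29 (1.76). This comparison shares its WT condition with the c-di-GMP response above, so the counts are not separate evidence. The neutrophil and lymphocyte markers given above differed between the same conditions, and their part was not tested.

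In Irf1-/- BMDCs c-di-GMP raised 10 and lowered 3 of 36 members, 36.1% against a background of 17.5%, or 9.67% higher and 7.81% lower. Of the 9 genes raised in WT, 8 rose here, Trim62 being the exception, and Trim35 and, at the limit, Trim14 were added. The difference in Irf1-/- came to between 56.5% and 163% of that in WT over these 9 genes on the log2 scale, lowest in Trim62 and highest in Trim21. Trim30a stood at 115% and Trim30b at 79.8%. The untreated level enters these shares. Irf1-/- minus WT was -0.85 to -0.66 over the 5 cluster genes tested untreated, with 0 called. Over the 7 tested after treatment it was -1.46 to -0.19, with 1 called. Treated Irf1-/- and treated WT BMDCs differed in 2 of 35 members, Trim30b at -1.46 and Trim16 at 1.58, or 5.71%, where 7.56% of all genes were called, 2.65% higher and 4.91% lower. That share is not above the background.

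In BMDCs labelled Irf3/7-/- c-di-GMP raised 7 of 36 members, all of them cluster genes, and lowered 1, Trim47. Together this was 22.2% against a background of 17.9%, or 10.2% higher and 7.68% lower. For the cluster genes the difference was between 76.3% of WT, in Trim6, and 117%, in Trim12c. The untreated level enters here too. Irf3/7-/- minus WT was -0.71 to -0.25 over the 5 cluster genes tested untreated, with 0 called. Over the 7 tested after treatment it was -1.22 to -0.08, with 1 called. Of the lowered genes, the differences ranged from 46% of WT in Trim36 to 74% in Trim37. Compared with treated WT BMDCs, 1 of 36 members was higher and 2 lower, 8.33% beside 7.3% of all genes, of which 4.61% were higher and 2.69% lower. Trim30b was lower by -1.22. Trim72, a muscle membrane repair protein, was at 0.262 FPKM (0.113-0.402) against 1.32 (0.853-1.77), and Trim46, a microtubule protein of axons, at 1.26 (0.85-1.68) against 0.532 (0.299-0.764). Both lie near the 1 FPKM minimum, and Trim72 shares 25% of its windows with Gm15533 on the opposite strand. Trim46 shares 5.37% of its windows with Krtcap2, which also lies on the opposite strand. Between the treated Irf1-/- and Irf3/7-/- BMDCs themselves 2 of 36 members differed, Trim47 at -1.37 and Trim46 at -1.66, or 5.56% where 9.84% of all genes did, 3.22% higher and 6.62% lower. So for the 7 raised cluster genes no difference between these 2 knockouts was called, their values lying between -0.32 and 0.31.

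**Figure D3:**
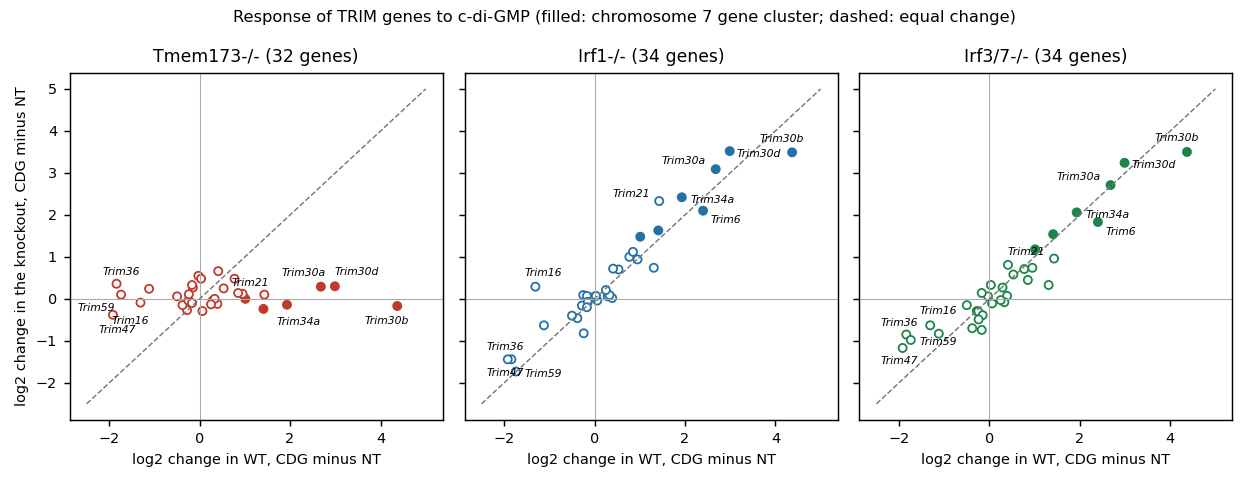
Log2 difference of FPKM + 0.1 between treated and untreated BMDCs, wild type on the horizontal and a knockout on the vertical axis, 1 point per TRIM gene tested in both. Filled points are the chromosome 7 cluster and the dashed line marks equal change. Most cluster genes lie near the dashed line in Irf1-/- and Irf3/7-/-, while Trim30b lies below it, at 3.49 and 3.5 against 4.37 in WT. In Tmem173-/- the cluster genes lie near 0, and all members fall between -0.38 and 0.66.

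Before treatment the knockouts already differed from WT BMDCs in a few members. In untreated Tmem173-/- BMDCs 1 of 34 members was higher and 5 lower, 17.6% beside a background of 11%, or 5.04% higher and 5.95% lower. The lower ones were Trim21 (-1.43), Trim30d (-1.41), Trim72 (-1.35), Trim30a (-1.09) and Trim56 (-1.09). In Irf1-/- 3 of 33 were called, 9.09% beside 4.78% (1.26% higher and 3.52% lower): Trim21 (-1.26) and Trim72 (-1.51) lower and Trim29 (1.22) higher. In BMDCs labelled Irf3/7-/- 1 of 34 was called, Trim29 (1.03), 2.94% beside 2.04% (1.17% higher and 0.863% lower). Untreated Trim21 was low in the 2 genotypes in which T cell markers and Gzma were also low and near the WT level in the one in which they were not. Of 15 genes that commonly mark an interferon response, 13 were lower than WT in untreated Tmem173-/-, 10 in Irf1-/- and 7 in Irf3/7-/-. Their medians were -2.41, -1.38 and -0.89. Irf7 is among the 15 and, being targeted in Irf3/7-/-, its place among the 7 follows from the genotype (1.07 FPKM against 15.2 in WT). The part of neither the cell markers nor the interferon genes was tested. All 3 comparisons use the same untreated WT condition.

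Trim29, a RING-less member that promotes loss of STING, was the one member called higher than WT in all 3 untreated knockouts. With a pseudocount of 1 FPKM the calls in Irf1-/- and Irf3/7-/- were lost, and with a minimum of 5 FPKM all 3. Its levels were 0.444 FPKM (0.253-0.646) untreated and 0.503 (0.295-0.717) treated in WT, 2.17 (1.53-2.81) and 1.94 (1.36-2.52) without STING, 1.17 (0.787-1.55) and 0.997 (0.66-1.33) in Irf1-/-, and 1.01 (0.66-1.35) and 0.722 (0.45-0.984) in Irf3/7-/-. WT was the lowest genotype and Tmem173-/- the highest, and c-di-GMP changed it in none. The shared WT condition, at less than 1 FPKM, enters all 3 differences. Trim72 was at 1.04 FPKM (0.676-1.4) in untreated WT, 0.348 (0.161-0.531) in Tmem173-/-, 0.301 (0.145-0.45) in Irf1-/- and 0.526 (0.29-0.756) in Irf3/7-/-. Treated Irf1-/- BMDCs had 0.776 FPKM (0.466-1.08) of it and treated Tmem173-/- BMDCs 0.43 (0.225-0.627). Trim56 was at 5.8 FPKM (4.43-7.17) and 7.75 (5.95-9.56) in WT, 4.51 (3.42-5.6) and 7.47 (5.74-9.2) in Irf1-/- and 5.8 (4.43-7.18) and 10.2 (7.9-12.6) in Irf3/7-/-. It was never called after c-di-GMP, although its treated level was the higher one in each of the 4 genotypes.

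**Figure D4:**
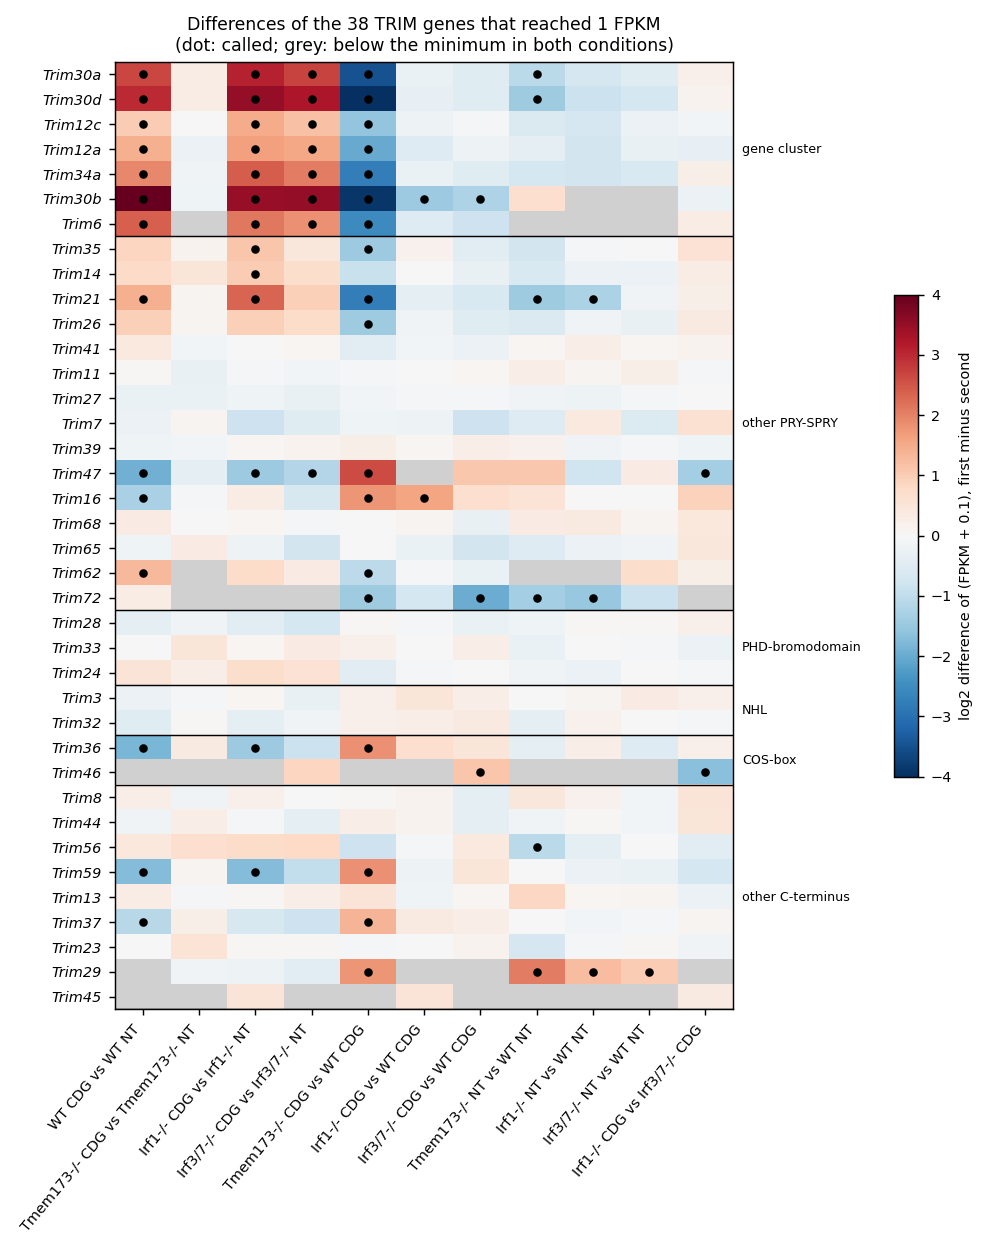
Log2 differences of FPKM + 0.1 of the 38 TRIM genes that reached 1 FPKM, in rows grouped by C-terminal domain, over 11 comparisons in columns, first condition minus second. Red is higher and blue lower, a dot marks a call and grey a gene below the minimum in both conditions. Calls after c-di-GMP gather in the cluster rows for WT, Irf1-/- and Irf3/7-/-, and the Tmem173-/- column holds 0.

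No member of the chromatin and NHL classes was called. Of those under 1 FPKM, Trim66 was at 0.0296 FPKM (0.00437-0.0575) untreated and 0.21 (0.128-0.292) treated in Irf3/7-/-, and untreated Trim2 at 0.616 (0.428-0.803) in Irf1-/- against 0.128 (0.0664-0.188) in WT, with the intervals apart in both. Trim28, the corepressor recruited by KRAB zinc finger proteins, ran from 38.2 FPKM in treated BMDCs labelled Irf3/7-/- to 61.9 in untreated ones and was not called. Trim24 and Trim33, its relatives in transcriptional control, stayed between 2.61 and 4.57 FPKM and between 4.82 and 7.12 FPKM. Of the NHL genes, Trim3 ran from 6.77 to 10.2 FPKM and Trim32 from 2.0 to 3.26 FPKM. Other uncalled members at 10 FPKM or more were Trim8 (18.7 to 27.7 FPKM), Trim11 (12 to 14.6), Trim27 (10.9 to 14.5), Trim41 (11.1 to 14.8) and Trim44 (9.71 to 15.1). They include ligases and the RING-less Trim44. Across all 11 comparisons 21 of the 64 members were called at least once, 14 of them with 5 FPKM or more somewhere, and 17 reached 1 FPKM without any call.

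Summed over the family, TRIM levels followed the cluster. The 64 members together stood at 390 FPKM in untreated and 808 in treated WT BMDCs, of which the cluster made up 21% and 53.2%. In Tmem173-/- the sums were 313 and 322 FPKM, with 14.7% and 15.2% from the cluster. The sums went from 349 to 726 FPKM in Irf1-/- (14.4% to 47.1%) and from 361 to 632 in Irf3/7-/- (16.6% to 49.9%). Ranked in treated WT BMDCs, Trim30a came first, with its interval apart from that of the next, Trim30d. The intervals of Trim30d and Trim35 overlapped, and Trim35 was apart from Trim28, which followed at 45.9 FPKM. From there down to Trim3 at 6.77 FPKM each gene's interval overlapped that of its neighbour.

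TRIM proteins whose genes carry other names gave 2 of 3 tested higher in WT BMDCs. Pml, the organiser of nuclear bodies, was at 17.3 FPKM (13.3-21.3) and 50.8 (39.2-62.3) in WT, 5.56 (4.27-6.85) and 6.13 (4.73-7.54) without STING, 6.15 (4.77-7.54) and 54.9 (42.4-67.4) in Irf1-/- and 14.2 (11-17.3) and 44.9 (34.6-55.2) in Irf3/7-/-. Its untreated level was low in the genotypes in which that of Trim21 was. Mid1, a COS-box ligase of microtubules, differed by 1.16 in WT and 0.01 in Tmem173-/-. Mefv, the pyrin sensor, was called in Irf1-/- alone (1.36) and stood at 0.81 in WT, and Mid2 was below 1 FPKM. The ubiquitin-conjugating E2 enzymes that work with TRIM ligases differed little: 0 of 7 were called after c-di-GMP in any of the 4 genotypes, with medians from 0.00 to 0.16. Of the 15 interferon response genes, 14 were higher in WT, 0 of 11 tested were called in Tmem173-/-, and 15 and 14 of 15 were higher in Irf1-/- and Irf3/7-/-. The 14 in Irf3/7-/- include Irf7, a gene targeted there, at 1.07 FPKM untreated and 4.97 treated. Over the interferon response genes tested, the median differences were 4.85, 0.10, 6.17 and 3.58. The untreated level entered these, being lower than in WT in 10 of the 15 in Irf1-/-, while between treated Irf1-/- and treated WT 0 were higher and 1 lower, with a median of -0.30.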

How the data were processed

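BMDC RNA was prepared with a stranded mRNA kit and sequenced as 35-base paired ends. The deposited table holds FPKM values that the authors made with Cuffdiff (version 1.06 in the submitters' processing notes) in DNAnexus, 1 value with bounds per condition, 2 replicates combined. Aligner and annotation of that table are not given in the sources used here, nor whether the strand setting the methods name for a separate SeqMonk analysis applied to it, and total counts are unknown. The notes name mm9, but the loci overlapped the GRCm38 gene of the same name for 21454 of 21681 genes and 64 of 64 members, so positions are from GRCm38 (GENCODE M21). The column TM173GDP was taken as treated Tmem173-/-, since its ratio to treated wild type is the one that matches the study's own gene list by heading. In 3 further columns the values belong to a condition outside the samples and were not used.

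Differences of log2(FPKM + 0.1) were called as described above, over all genes with status OK in both conditions, with Python 3.11.15, numpy 2.4.6 and pandas 2.3.3. The calling code was tested on simulated data. For 4710 genes at 10 FPKM or more everywhere, the half-width of the interval had a median of 25.2% to 25.7% of the FPKM per condition. Named were members called in at least 1 of 11 comparisons (all 8 levels from 5 FPKM up), uncalled ones from 10 FPKM up and those at 0 throughout. Other values in the text, including the highest levels of low members and the levels of called members below 5 FPKM, were chosen after they were seen. The members and lists were chosen with earlier results of these data known. Promoters were searched for GAAANNGAAA and for TTCNNNGAA on both strands, and 35-base windows of annotated transcripts were matched between genes. Positions on chromosome 18 carry no sequence here.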

Additional observations from a re-analysis of the deposited data

How the results depend on the processing

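No paired analysis was possible because the 2 replicates of each condition are combined in 1 deposited value, and for the same reason no replicate could be left out. Over the 11 comparisons 70 pairs of gene and comparison were called. Of these, 19 were lost with a pseudocount of 1 FPKM, 24 with a minimum of 5 FPKM, 47 with a 4-fold limit and 1, Trim14 in Irf1-/-, with median centring, and none changed direction. In the order c-di-GMP against untreated for WT, Irf1-/- and Irf3/7-/-, then treated Tmem173-/- against treated WT, the main counts were 14, 13, 8 and 18 members. A 4-fold limit left 4, 6, 4 and 8, and leaving out the cluster 7, 6, 1 and 11. At the main setting 35, 36, 36 and 36 members were tested, 7 of them cluster genes each time. Of all genes tested, 20.5%, 17.5%, 17.9% and 26.3% were called there, and this share was not computed for the other settings. Outside the cluster the Irf3/7-/- share lay below that of all genes, and the shares of the other comparisons above it. A 1.5-fold limit gave 13 in Irf3/7-/-. Treated Irf1-/- against treated WT went from 2 to 4 without a minimum, 1 with a minimum of 5 FPKM, 0 with a 4-fold limit and 1 without the cluster. Treated Irf3/7-/- against treated WT went from 3 to 1 with a pseudocount of 1 FPKM, 1 with a minimum of 5 FPKM and 0 with a 4-fold limit. Untreated against WT, Tmem173-/- went from 6 to 1 with a 4-fold limit, Irf1-/- from 3 to 1 with the pseudocount, 1 with the minimum, 5 with a 1.5-fold and 0 with a 4-fold limit, and Irf3/7-/- from 1 to 0 with the pseudocount, the minimum and a 4-fold limit. Treated Irf1-/- against treated Irf3/7-/- went from 2 to 0 with the pseudocount, the minimum of 5 FPKM and a 4-fold limit, and to 4 without a minimum. The 0 in Tmem173-/- held under all of these. Fewer genes could pass the stricter settings by construction. Low members such as Trim29, Trim46 and Trim72 rest on about 1 FPKM, where the intervals are wide.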
